A study of Mus musculus with 278 samples.

Results

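NANOS2, NANOS3, DND1, PUM2 and CNOT1 are proteins that bind messenger RNA in germ cells or carry the machinery that removes its poly(A) tail, and their 5 transcripts, chosen by name, were followed here among 23354 genes of a single-cell RNA-seq matrix. The 278 samples are single spermatogonia of untreated mice at postnatal day 6, all positive for an EGFP reporter of Id4 (ID4-EGFP), a gene expressed in spermatogonial stem cells. Each cell belongs to 1 of 4 quartiles of EGFP brightness: Q1 (bright, 74 cells), Q2 (70 cells), Q3 (74 cells) and Q4 (dim, 60 cells). The cells come from 5 preparations of 26 to 78 cells, each of which gave cells of every quartile. The run number in the sample titles, from 1 to 5, was taken as the number of the preparation, which the labels do not state. Per the labels' protocols, testes of several pups were pooled for a preparation, EGFP-positive cells were sorted, captured on a microfluidic chip and imaged, and dead cells and multiplets were left out. The animals behind the preparations are not told apart in the labels, EGFP marks the activity of the reporter and not the Id4 transcript, and brightness was a rank over cells, so a quartile is a range and not a cell type.

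In mice, NANOS proteins hold germ cells in an undifferentiated state by silencing messenger RNAs. NANOS2 is required to keep spermatogonial stem cells, and NANOS3 is required for the survival of primordial germ cells. DND1 is an RNA-binding partner that NANOS2 needs to load onto its targets, and NANOS proteins bind CNOT1, the scaffold of the CCR4-NOT deadenylase complex, which shortens poly(A) tails. PUM2 belongs to the Pumilio family, whose members bind a short element in 3′ UTRs and which in Drosophila act together with Nanos.

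The genes lie on 4 chromosomes of the GRCm38 assembly in the GENCODE M21 annotation. Nanos2 is on the plus strand at chr7:18987400-18988962 and has 1 annotated transcript. Nanos3 is on the minus strand at chr8:84173731-84185217, and Cnot1 is on the same chromosome and strand at chr8:95719451-95807464. Pum2 is on the plus strand at chr12:8674134-8752581, and the place of Dnd1 is given with its values. Exons of 3 of them overlap a gene on the other strand: 766 bases of Nanos2 with the antisense gene Gm45058, which is not a row of the matrix, 140 bases of Dnd1 with Wdr55, and 132 bases of Cnot1 with 4930513N10Rik. No strand setting is given in the sources used here, so reads from the overlaps cannot be assigned to one gene.

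The Pumilio element was searched as TGTANATA on the sense strand of annotated 3′ UTRs, because the protein reads the messenger RNA. Pum2 itself and Cnot1 hold it, and the sites are shown because the element is the one that the Pumilio protein of the group reads. Capitals mark the element, with 8 bases of context on either side, each 5′ to 3′ on the strand of the gene.
Pum2, chr12:8750165-8750172, plus strand: tatagagaTGTATATAgaattata
Pum2, chr12:8750418-8750425, plus strand: tacagaatTGTATATActtataat
Cnot1, chr8:95720170-95720177, minus strand: tgaacttgTGTAAATAtatgaaag
The Pum2 sites begin 445 and 698 bases after the stop codon and the Cnot1 site 230 bases after it. These letters were not found in the 3′ UTRs of Nanos2, Nanos3 or Dnd1. Of the tested genes with an annotated 3′ UTR, 27.9% hold at least 1 element, so its presence in 2 of the 5 is a description and not a sign of binding. The 2657 genes with an element had a median log2 difference of 0.18 between Q1 and Q4, against 0.17 for the 6868 genes without one, and their 3′ UTRs were longer (median 2178 bases, against 864 bases).

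All 278 cells had at least 3 of 6 germ cell markers (Ddx4, Dazl, Mael, Uchl1, Zbtb16, Sall4) at an FPKM of 1 or more, the level at which a transcript is called detected here. FPKM is the number of fragments scaled to the length of the transcript and to the mapped fragments of the cell, so levels can be set beside each other between genes. Somatic markers were rare: no Sertoli marker was found in more than 10.1% of cells, no endothelial marker in more than 10.1%, no peritubular myoid marker in more than 8.99% and no macrophage marker in more than 1.80%. The Leydig marker Star was found in 19.8% of cells, while Cyp11a1, Hsd3b1 and Insl3, as well as Amh of Sertoli cells and Adgre1 of macrophages, were at 0 in every cell. Summed over the 6 Sertoli markers, the mean level was 9.89 FPKM for Q1, 6.50 for Q2, 14.2 for Q3 and 4.41 for Q4, beside 3512, 3635, 3433 and 3382 FPKM for the 6 germ cell markers. The deposited values carry no depth, and an estimate from the steps between low values gave a median of 624010 fragments per cell, from 205594 to 1239700. The number of detected genes per cell was 6293 ± 931 for Q1, 6173 ± 1047 for Q2, 6106 ± 1127 for Q3 and 5732 ± 1305 for Q4 (mean ± SD, n = 5 preparations), and Q1 cells had more than Q4 cells in 5 of 5 preparations. Preparation 3 had the fewest, with a mean of 4437 detected genes.

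Nanos3 was the most abundant of the 5 transcripts. Its mean level over cells was 94.9, 97.6, 65.4, 120.4 and 78.7 FPKM in preparations 1 to 5, or 91.4 ± 20.8 FPKM (SD, n = 5). Dnd1 followed with 50.8 ± 11.9 FPKM, Pum2 with 42.6 ± 9.26 FPKM and Cnot1 with 36.02 ± 6.01 FPKM. Nanos2 stood at the low end, with 7.01 ± 3.52 FPKM. Nanos3 was above every other regulator, and Nanos2 below every other, in 5 of 5 preparations. The order of the neighbours between them was not the same throughout: Dnd1 was above Pum2 in 3 of 5 preparations and above Cnot1 in 4 of 5, and Pum2 was above Cnot1 in 5 of 5 but by a log2 ratio of only 0.23 ± 0.22 (SD).

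The number of cells with a transcript followed another order than the level. Cnot1 was detected in 269 of 278 cells (96.8%), Pum2 in 252 (90.6%), Dnd1 in 228 (82.01%), Nanos3 in 217 (78.1%) and Nanos2 in 51 (18.3%). Nanos3, the transcript with the highest mean, was therefore not detected in 61 cells, while its highest cell, in Q4, held 1097 FPKM. An FPKM of 1 is not the same number of fragments for each gene. The longest coding transcript has 8390 bases for Cnot1, 6311 for Pum2, 1563 for Nanos2, 1451 for Dnd1 and 730 for Nanos3. In that order, their lowest values above 0 were 0.17, 0.19, 0.85, 0.86 and 1.83 FPKM. The part of transcript length in detection and in the spread between cells was not tested. The spread of Nanos3 between cells of the same preparation and quartile was 2.88 on the log2(FPKM + 1) scale, larger than in 99.0% of the 10452 tested genes. The same spread was 2.46 for Dnd1 (percentile 89.9), 1.95 for Pum2 (percentile 58.02), 1.84 for Nanos2 (percentile 50.3) and 1.38 for Cnot1 (percentile 21.97). The scaffold of the deadenylase complex thus varied less between cells than most genes. For each of the 5 transcripts, between 88.1% and 95.8% of the variance lay between cells within the same preparation and quartile, beside a median of 90.4% over the tested genes.

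**Figure D1:**
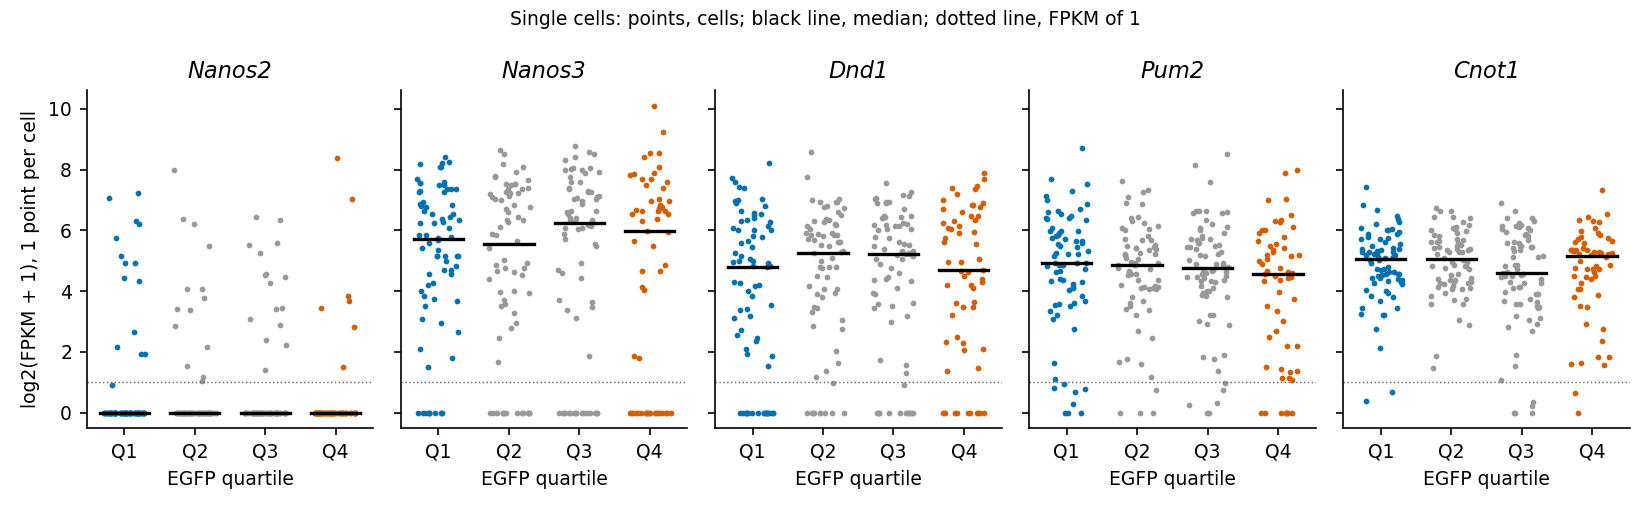
Level of each transcript in single cells, as log2(FPKM + 1) on the vertical axis, by EGFP quartile. Each point is 1 of 278 cells, the black line is the median of the quartile and the dotted line is an FPKM of 1; most Nanos2 points lie at 0, Nanos3 cells lie either at 0 or spread up to 1097 FPKM, and Cnot1 forms the narrowest band.

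Nanos2 transcripts were concentrated in few cells. The 28 cells with the highest values held 93.6% of all Nanos2 FPKM, while the top 28 cells held 37.5% for Nanos3, 35.3% for Dnd1, 39.1% for Pum2 and 26.2% for Cnot1. Among cells with Nanos2 the median was 15.9 FPKM, and 5 cells exceeded 100 FPKM, up to 330 FPKM. Low Nanos2 values fell on regular steps once multiplied by the estimated depth of the cell. Taking the lowest step as 1 fragment, 15 of 15 values under 5.5 fragments lay within 0.1 of a whole number. There were 6 cells at 1 fragment, 3 at 2, 3 at 3 and 3 at 4. The 6 cells at 1 fragment set the size of the step, so only the values at 2 to 4 fragments bear on its regularity. The median was 11.9 fragments in the 52 cells above 0, and 1 fragment was worth about 1.22 FPKM at the median depth. Detection of Nanos2 at an FPKM of 1 thus stood close to a single fragment, and a cell without the transcript cannot be told from one in which it was missed. The fragments are copies from amplified cDNA and not separate molecules. Pooled over preparations, the median estimated depth was 577316 fragments in cells with Nanos2 and 640769 in cells without it. The part of depth in the detection of Nanos2 was not tested.

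All 5 transcripts passed the filter for testing, detection in 10% or more of the cells, and none passed the test across the quartiles. The fit was limma on the mean log2(FPKM + 1) over cells of each preparation and quartile, with preparation as a block, and p-values were adjusted by Benjamini-Hochberg over all 10452 tested genes. Between Q1 and Q4, 0 of 5 members had an adjusted p under 0.05, beside 0.0765% of all tested genes (8 genes). At an unadjusted p under 0.05 there was 1 of 5 in this fit, Pum2, beside 11.4% of the tested genes, and 10.4% of tested genes passed in the direction of Q1. The trend over quartiles was 0.10 ± 0.07 for Nanos2, 0.18 ± 0.13 for Nanos3, -0.10 ± 0.09 for Dnd1 and 0.12 ± 0.09 for Cnot1 per step toward Q1 (SE, limma adjusted p from 0.586 to 0.693). The median log2 difference of all tested genes between Q1 and Q4 was itself 0.17 in favour of Q1, and the differences below are to be read against that value.

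**Figure D2:**
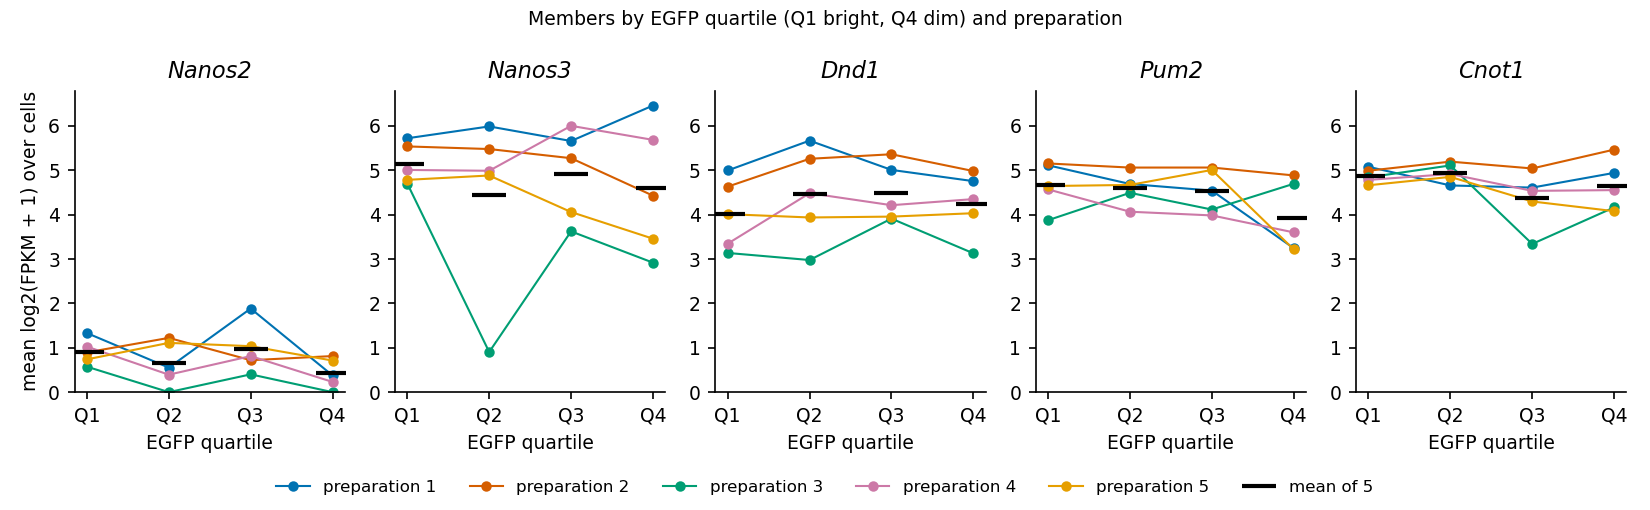
Mean log2(FPKM + 1) over the cells of each preparation (coloured lines) by EGFP quartile, with the mean of the 5 preparations as a black bar. Pum2 is lowest at Q4 in preparations 1, 2, 4 and 5 but not in preparation 3, Nanos3 is lowest in Q2 of preparation 3 (7 cells), and the lines of Dnd1 and Cnot1 cross without an order shared by all preparations.

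Pum2, the Pumilio protein of the group, had the largest estimate of the 5 in favour of Q1 on the scale used here, though not under every alternative. Its mean log2(FPKM + 1) in preparations 1 to 5 was 5.11, 5.16, 3.88, 4.57 and 4.65 in Q1 cells, against 3.25, 4.89, 4.70, 3.60 and 3.22 in Q4 cells. Q1 was the higher in 4 of 5 preparations and Q4 in preparation 3, and the groups overlapped, also without preparation 3. The limma estimate was 0.80 ± 0.32 (SE) in favour of Q1, with an unadjusted p of 0.0199 and an adjusted p of 0.327. Between the dimmest quartiles, Q3 minus Q4 was 0.69 ± 0.32 (limma, unadjusted p = 0.0403, adjusted p = 0.66), where 7.4% of tested genes had an unadjusted p under 0.05. That step was 0.23 without preparation 5 (limma, unadjusted p = 0.535) and 0.23 on the log of the mean FPKM. Q1 minus Q2 was 0.11 ± 0.31 and Q2 minus Q3 was -0.01 ± 0.31, in comparisons where 4.08% and 4.68% of the tested genes had an unadjusted p under 0.05 and 0 passed after adjustment. The trend over all quartiles was 0.24 ± 0.10 per step toward Q1 (limma, unadjusted p = 0.0261, adjusted p = 0.344), beside 12.2% of tested genes at an unadjusted p under 0.05 and 0.134% after adjustment. The difference between Q1 and Q4 was 1.04 without preparation 3, 0.50 without preparation 5 and 0.51 on the log of the mean FPKM. The Nanos3 estimate was above that of Pum2 without preparation 4 (1.16, against 0.73), without preparation 1 (0.80, against 0.70) and at a pseudocount of 0.1 (1.35, against 1.11). The Nanos2 estimate was above that of Pum2 on the log of the mean (0.73, against 0.51) and without preparation 5 (0.53, against 0.50). In mean FPKM the Q1 cells had 51.02 ± 12.4, the Q2 cells 40.9 ± 9.66, the Q3 cells 41.2 ± 16.4 and the Q4 cells 34.8 ± 16.1 (SD, n = 5).

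The share of cells with Pum2 depended on the level that counted as detected. At an FPKM of 1 it was 88.6% ± 14.9 in Q1 and 88.9% ± 10.4 in Q4 (SD, n = 5 preparations; exact sign-flip permutation test, two-sided, p = 1). This was 1 of 5 such tests, 1 for each regulator, and 5 preparations allow no p below 0.0625. A preparation with equal shares in Q1 and Q4 raises that limit. The share was 7.20 percentage points higher in Q1 at any value above 0 (higher in 3 preparations, lower in 0) and 12.8 points higher at an FPKM of 5 or more (higher in 4 of 5). Among cells with the transcript, the mean level was 46.4, 46.996, 114.1, 52.3 and 46.8 FPKM in Q1, against 13.4, 38.5, 66.7, 34.2 and 47.9 FPKM in Q4 of preparations 1 to 5. On the log2 scale those cells had more Pum2 in Q1 in 5 of 5 preparations, by 0.81 ± 0.68 (SD). Restricting the comparison to cells with the transcript was decided after the values had been seen and is given without a test. For scale, 2.95% of the 7602 genes with such a value in every preparation lay above 0 in 5 of 5.

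For Nanos3, the share of cells with the transcript and the level within those cells pointed in opposite directions. In preparations 1 to 5, Nanos3 was detected in 100%, 93.8%, 81.8%, 85% and 84.2% of Q1 cells, against 100%, 73.3%, 42.9%, 86.7% and 47.4% of Q4 cells. The difference of 18.9 ± 19.4 percentage points (SD, n = 5) did not pass the exact sign-flip permutation test (two-sided p = 0.25). In the cells with the transcript the mean level was 80.2, 93.1, 100.8, 109.8 and 80.9 FPKM in Q1, against 112.0, 119.6, 111.8, 196.3 and 213.7 FPKM in Q4. Every one of the 5 preparations had the higher value in Q4. The highest Q1 value of 109.8 FPKM lay just below the lowest Q4 value of 111.8 FPKM, which rests on 3 cells of preparation 3. How many other genes have Q1 and Q4 values that do not overlap was not counted, so no weight is put on that gap. The log2 difference in these cells was -0.85 ± 0.55 (SD, n = 5), a comparison that was also chosen after the values had been seen and has no test. Of the 7602 genes, 5.20% lay below 0 in 5 of 5 preparations and 2.95% above. With all cells kept, 1.67% of the 10452 tested genes lay below 0 in 5 of 5 and 8.42% above. The balance over all genes thus also turned when only cells with the transcript were kept. Its part in the Nanos3 values was not tested. Over the 4 quartiles, cells with Nanos3 averaged 92.95 ± 12.8 FPKM for Q1, 100.2 ± 17.6 for Q2, 136.0 ± 35.3 for Q3 and 150.7 ± 50.04 for Q4 (SD, n = 5).

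**Figure D3:**
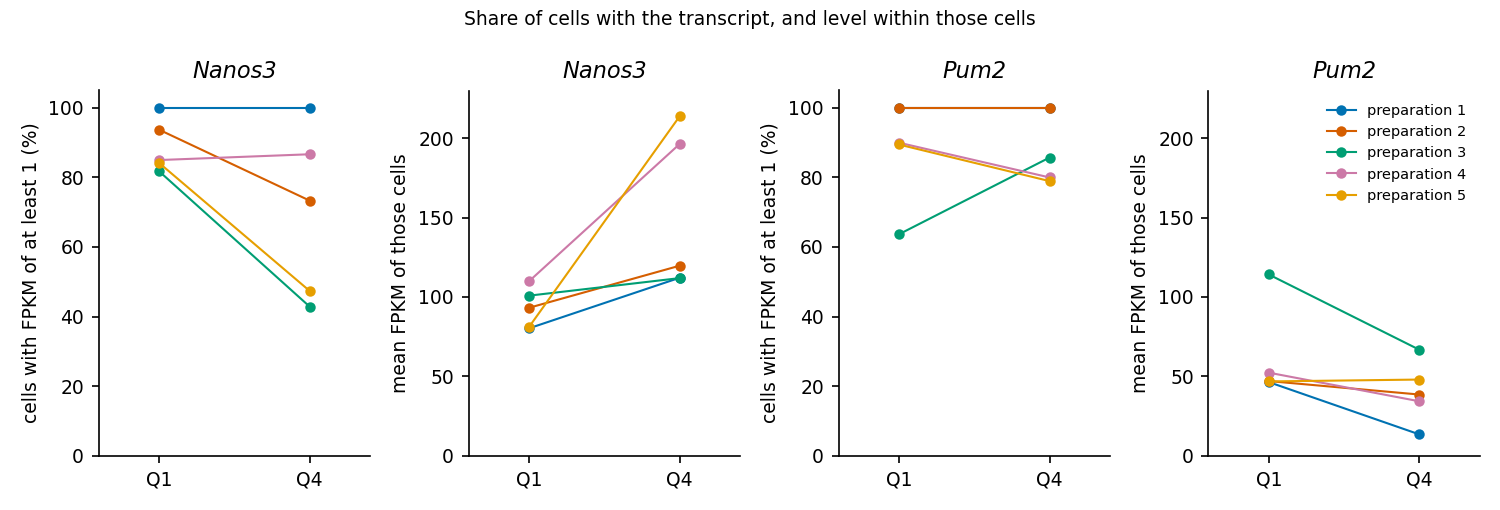
Nanos3 and Pum2 in Q1 and Q4 of each preparation (coloured lines), as the share of cells with an FPKM of at least 1 and as the mean FPKM of those cells. Nanos3 is found in fewer Q4 cells in 3 of 5 preparations while its level in the cells that have it is higher in Q4 in all 5, and Pum2 shows no shared direction in its share of cells at this threshold.

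The sign of the Nanos3 difference over all cells depended on how cells were averaged. The limma estimate on the mean of logs was 0.68 ± 0.43 (SE) in favour of Q1 (adjusted p = 0.579), with Q1 higher in 3 of 5 preparations. On the log of the mean FPKM it was -0.32 ± 0.32 (limma, adjusted p = 0.859), and the mean levels were 82.3 ± 9.37 FPKM for Q1, 77.3 ± 38.6 for Q2, 101.03 ± 29.6 for Q3 and 103.8 ± 44.3 for Q4 (SD, n = 5). The estimate on the mean of logs was 1.16 without preparation 4 (limma, unadjusted p = 0.0251, adjusted p = 0.445), 0.40 without preparation 5 and 1.35 at a pseudocount of 0.1 (limma, unadjusted p = 0.0455, adjusted p = 0.373). Adding the number of detected genes, which also differed between Q1 and Q4, as a covariate lowered it to 0.09.

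Nanos2, the stem cell regulator, was detected in 14 of 74 Q1 cells, 14 of 70 Q2 cells, 16 of 74 Q3 cells and 7 of 60 Q4 cells. By preparation this was 25%, 25%, 9.09%, 15% and 21.1% of Q1 cells, against 25%, 13.3%, 0%, 6.67% and 15.8% of Q4 cells. The 0 in preparation 3 rests on 7 cells and allows a share of up to 42.9%. Q1 was the higher in 4 of 5 preparations and equal in 1, and the difference of 6.87 ± 4.47 percentage points (SD) had an exact two-sided sign-flip permutation p of 0.125. With 1 preparation equal, that is the lowest p the test could give. Mean log2(FPKM + 1) was 1.33, 0.90, 0.57, 1.03 and 0.74 in Q1, against 0.38, 0.81, 0, 0.23 and 0.71 in Q4. It was higher in Q1 within 5 of 5 preparations, as it was for 8.42% of the tested genes, while the ranges overlapped between preparations. The limma difference was 0.40 ± 0.22 (SE, adjusted p = 0.509), and Q3 minus Q4 was of the same size (0.41 ± 0.22, unadjusted p = 0.0749). The difference between Q1 and Q4 was 0.25 without preparation 4, 0.68 at a pseudocount of 0.1 and 0.73 on the log of the mean FPKM. Mean FPKM was 8.38 ± 6.00 for Q1, 6.17 ± 8.15 for Q2, 5.89 ± 3.88 for Q3 and 6.36 ± 9.79 for Q4 (SD, n = 5). Q1 and Q4 each held 2 cells above 100 FPKM, Q2 held 1 and Q3 held 0.

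Dnd1, on the minus strand at chr18:36763671-36766214, was the only one of the 5 with a negative estimate between Q1 and Q4. Mean log2(FPKM + 1) was 5.00, 4.63, 3.14, 3.35 and 4.01 in Q1, against 4.76, 4.98, 3.13, 4.35 and 4.03 in Q4 of preparations 1 to 5. Q4 was the higher in 3 of 5, with the widest gap in preparation 4 (-1.004), and the limma difference was -0.35 ± 0.29 (SE, adjusted p = 0.691). It was -0.11 without preparation 4, -0.14 with the number of detected genes as a covariate and -0.16 after scaling to a common 75th percentile. The largest step was Q1 minus Q2, at -0.50 ± 0.28 (limma, unadjusted p = 0.0858), with both groups of values overlapping, and -0.25 without preparation 4. In mean FPKM Dnd1 had 48.8 ± 13.03 for Q1, 55.3 ± 29.8 for Q2, 47.2 ± 18.04 for Q3 and 50.5 ± 8.76 for Q4 (SD, n = 5). The share of cells with Dnd1 was 78.4% ± 18.5 in Q1 and 84.7% ± 10.6 in Q4 (exact two-sided sign-flip permutation p = 0.375), and at an FPKM of 5 or more the difference was -0.25 percentage points.

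Cnot1 had the smallest spread between cells of the 5. Of its variance, 5.69% lay between quartiles within preparations. That was the largest share of the 5, but near the 5.45% of Pum2 and the median of 5.36% over the tested genes. Mean log2(FPKM + 1) was 5.08, 4.99, 4.84, 4.79 and 4.66 in Q1, against 4.94, 5.47, 4.16, 4.55 and 4.08 in Q4. Q1 was the higher in 4 of 5 preparations, and the limma difference of 0.24 ± 0.28 (SE, adjusted p = 0.8) lay near the median of all genes. With the number of detected genes as a covariate the sign turned, to -0.40 ± 0.42. It was 0.08 without preparation 5, 0.46 without preparation 2, 0.43 after scaling to a common 75th percentile and 0.09 on the log of the mean FPKM. The largest step was Q2 minus Q3, at 0.53 ± 0.27 (limma, unadjusted p = 0.0613), and 0.34 without preparation 3. The share of cells with Cnot1 was 97.2% ± 4.12 for Q1 and 96.1% ± 6.23 for Q4 (SD, n = 5, exact two-sided sign-flip permutation p = 0.5), a difference of 1.09 percentage points that was 8.72 at an FPKM of 5 or more. Mean FPKM was 37.99 ± 7.24 for Q1, 38.4 ± 9.97 for Q2, 32.05 ± 3.45 for Q3 and 36.1 ± 10.0 for Q4 (SD, n = 5).

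**Figure D4:**
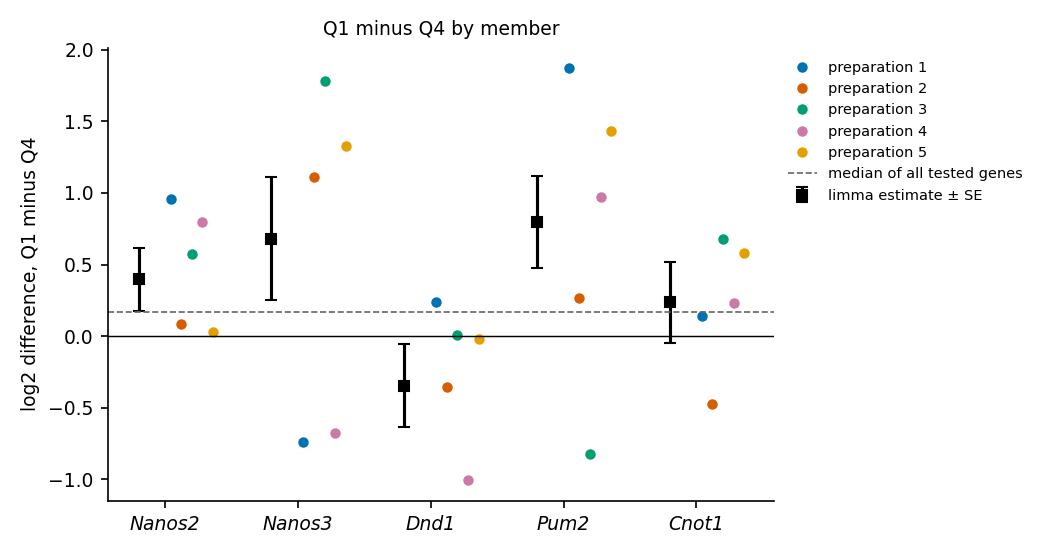
Log2 difference between Q1 and Q4 for each regulator, as the limma estimate with its SE (black squares) and as the difference within each preparation (coloured points). The dashed line is the median of all tested genes at 0.17; Nanos2 is above 0 in all 5 preparations, Pum2 in 4, and the error bars of Cnot1 cross 0.

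The transcripts that NANOS2 acts with were present in most cells that had Nanos2. Of the 51 cells with Nanos2, 51 also had Cnot1, 45 had Dnd1, 45 had Nanos3 and 47 had Pum2. In the 227 cells without Nanos2 these were 218, 183, 172 and 205. Nanos2, Dnd1 and Cnot1 were found together in 45 cells, 11 of Q1, 13 of Q2, 15 of Q3 and 6 of Q4. Nanos3, Dnd1 and Cnot1 were found together in 181 cells. Nanos2 without Nanos3 was seen in only 6 cells, while Nanos3 without Nanos2 was seen in 172. Neither was detected in 55 cells, 7 of Q1, 13 of Q2, 17 of Q3 and 18 of Q4, and those cells had a median of 5516 detected genes, against 6819 in the 45 cells with both, so that breadth of detection moved with this count and its part in it was not tested. Of those 55 cells, 23 also lacked Nanos1. All 5 transcripts were found in 39 cells, 4 of them in 143, 3 in 64, 2 in 27, 1 in 4 and none in 1 cell.

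Gfra1, the GDNF receptor of stem cell associated spermatogonia, was detected in 46 of the 51 cells with Nanos2 (90.2%), against 151 of the 227 cells without it (66.5%). Averaged over preparations the share was 92.8% ± 7.83 in cells with Nanos2 and 71.1% ± 15.4 in cells without it (SD, n = 5), and it was higher with Nanos2 in 5 of 5 preparations. The number of detected genes was also higher in cells with Nanos2 in 4 of 5 preparations (6240 ± 987, against 6077 ± 1093), and its part in this was not tested. Preparation 3 had only 3 cells with Nanos2, and preparation 1 had 8. Transcripts of later states had no direction shared by all preparations. Kit was found in 24 of 51 cells with Nanos2 and 140 of 227 without, lower with Nanos2 in 4 of 5 preparations, and Stra8, a retinoid-induced gene, in 32 of 51 and 180 of 227, lower in 3 of 5. Neurog3, a progenitor factor, was found in 7 of 51 cells with Nanos2 and 21 of 227 without, lower with Nanos2 in 4 of 5 preparations. The Id4 transcript was more frequent with Nanos2 in 3 preparations, less frequent in 1 and equal in 1 (46.5% ± 19.7, against 39.9% ± 9.57). Id4 was detected in 99 of 217 cells with Nanos3 and 17 of 61 without, a larger share with Nanos3 in 5 of 5 preparations (43.99% ± 11.6, against 22.2% ± 13.6), while Gfra1 had a larger share with Nanos3 in 3 of 5 (81.2% ± 12.5, against 63.3% ± 24.7). Detected genes were more numerous with Nanos3 in 5 of 5 as well (6235 ± 905, against 5845 ± 1228). Cells without Nanos3 were few in some preparations. It was detected in 25 of 26 cells of preparation 1, 53 of 62 of preparation 2 and 66 of 75 of preparation 4. How many genes differ in 5 of 5 preparations between cells with and without Nanos2 or Nanos3 was not counted.

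**Figure D5:**
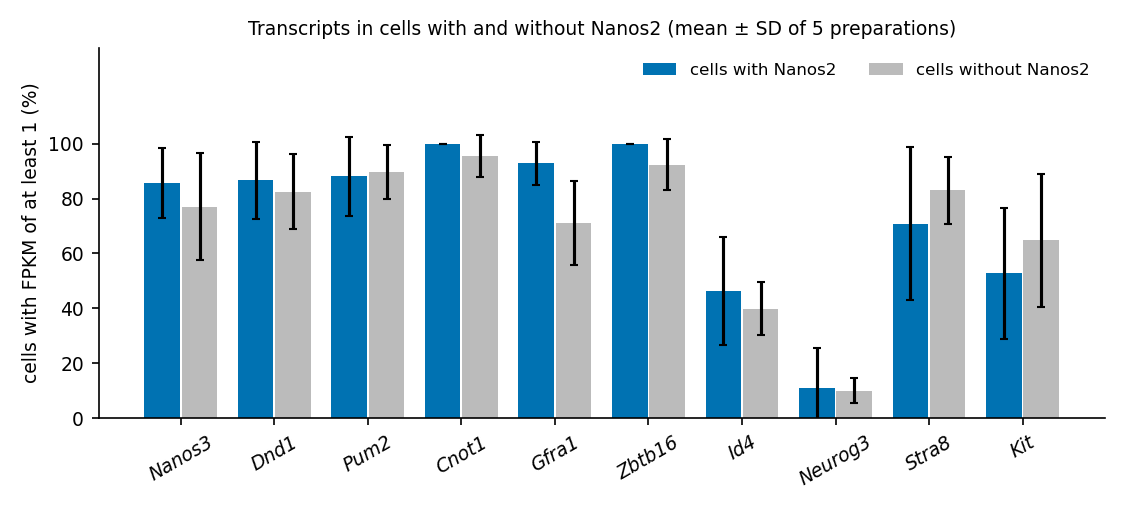
Share of cells with an FPKM of at least 1 for each transcript, in cells with Nanos2 (blue) and without it (grey), as the mean of 5 preparations with the SD. Gfra1 stands at 92.8% with Nanos2 and 71.1% without, Kit and Stra8 are lower with Nanos2 on average with error bars that overlap, and Cnot1 and Zbtb16 are at 100% with Nanos2.

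Between single cells the levels of the 5 were at most weakly correlated. Pearson correlations of log2(FPKM + 1) over the 278 cells, after subtraction of preparation means, were highest for Nanos3 with Dnd1 (r = 0.20) and for Pum2 with Cnot1 (r = 0.16), and Nanos2 with Nanos3 gave 0.11. Nanos2 with Dnd1 gave -0.0018 and Nanos2 with Pum2 gave -0.08. The cells share runs and differ in depth, and all 5 transcripts correlated weakly with the number of detected genes (r from 0.06 for Nanos2 to 0.25 for Nanos3). Of the tested genes, those most like Nanos3 by the same measure were Rragd (r = 0.39), Sdc4 (0.39), Dbndd2 (0.35), Hmgn5 (0.34) and Upp1 (0.34). For Pum2 they were Atm (0.33), Smg1 (0.33), Rbm26 (0.31), Smarca5-ps (0.30) and Smc2 (0.30). For Cnot1 they were Ube2e3 (0.34), Taf1 (0.34), Ski (0.33), Vps13b (0.33) and Npat (0.32). Dnd1 came with Foxr1 (0.29), Lamb1 (0.29), Enc1 (0.28), Gemin5 (0.27) and Csl (0.27), and Nanos2 with Ggnbp1 (0.26), Polm (0.26), Zfp212 (0.24), Anxa2 (0.24) and Daam1 (0.23). No other member was among the 5 closest genes of any regulator. Even the closest tested gene reached only r = 0.26 for Nanos2 and 0.39 for Nanos3, so low values between members do not show that they are unrelated. How far missed transcripts lowered these correlations was not tested.

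No gene of the wider families passed the test between Q1 and Q4. Of all 10452 tested genes, 7263 had an estimate above 0 and 3189 below. The counts for each list are to be read beside those. Of 5 NANOS and PUM family genes, 4 had an estimate above 0 between Q1 and Q4 and 0 passed, with a median of 0.40, against 0.17 over all tested genes. Pum2 was at the top of that list and Nanos1, a NANOS paralogue, at the bottom (-0.38 ± 0.45, limma adjusted p = 0.794). Nanos1 was detected in 164 cells. Of 11 subunits of the CCR4-NOT complex, 7 lay above 0 and 0 passed, with a median of 0.19. The extremes were the deadenylases Cnot7 (0.97 ± 0.38, adjusted p = 0.319) and Cnot6 (-0.25 ± 0.45, adjusted p = 0.878). At an unadjusted p under 0.05 there were 3 of the 11, all toward Q1, beside 10.4% of tested genes: Cnot7, Cnot6l (0.94 ± 0.38) and Cnot9 (0.64 ± 0.23), the last of which was the most abundant subunit of the 11 at 424 FPKM. The last pair was named after its values were seen.

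The same held for adaptors and neighbouring machinery. Of 4 tested BTG and TOB genes, which bring CCR4-NOT to transcripts, 3 lay above 0, from Tob1 (-0.0044 ± 0.34) to Btg1 (0.47 ± 0.29), and 0 passed. Of 14 decapping and P-body genes, where silenced messenger RNAs gather, 10 lay above 0 and 0 passed (median 0.19), and 4 had an unadjusted p under 0.05, all toward Q1, beside 10.4% of tested genes in that direction. Lsm14a was at the top (0.83 ± 0.34, limma adjusted p = 0.346) and Lsm1 at the bottom (-0.56 ± 0.29, adjusted p = 0.473). Of 6 other genes of deadenylation and poly(A) binding, 3 lay on either side of 0, between Pabpc4 (-0.36 ± 0.20) and Pan2 (0.28 ± 0.36). Of 23 RNA-binding regulators of germ cells, 19 were tested, 15 lay above 0 and 0 passed (median 0.13). Lin28a, a progenitor gene, was at the top (1.05 ± 0.41, limma adjusted p = 0.316) and Dnd1 itself at the bottom. Of 5 progenitor markers (Neurog3, Sox3, Upp1, Rarg, Lin28a), Lin28a was the only 1 above 0. The other 4 lay below, and the median of the 5 was -0.39.

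Transcripts reported as bound or lowered by NANOS2 lay mostly on the other side of 0. Of 9 such genes, 7 had an estimate below 0 between Q1 and Q4 and 2 above, with a median of -0.25, against 0.17 over all tested genes, and 0 passed. Over all 10452 tested genes, 3189 lay below 0. Stra8 was the lowest (-0.48 ± 0.47, limma adjusted p = 0.74) and Dmc1, a meiotic recombinase, the highest (0.21 ± 0.41, adjusted p = 0.889). One gene of the 9, Neurog3, had an unadjusted p under 0.05 (-0.47 ± 0.22, adjusted p = 0.427), beside 11.4% of tested genes in either direction, and it was detected in 28 cells. Stra8, Sohlh1, Neurog3 and Sox3 of this list are also markers of progenitor or differentiating spermatogonia. Mtor and Rptor, of the growth-control complex that NANOS2 particles hold in mouse spermatogonia, differed by 0.06 ± 0.33 and -0.03 ± 0.26.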

How the data were processed

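Cells were profiled by SMARTer cDNA synthesis and Nextera libraries on a Fluidigm C1 chip, per the labels' protocols. The authors deposited 1 matrix of FPKM with 23354 genes and 278 columns, all of which were used. Its header names no unit, which was taken from the quantifier and the values. Cufflinks, TopHat, Picard and FastQC are named in the submitters' processing notes, with the builds mm10 and GRCm38. Their versions and the annotation were not stated there.

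Quartiles come from the labels, with Q4 as the dim one, as in the design text (a protocol passage numbers it differently). Preparations were taken from the run number in the sample titles, since the design text counts as many preparations as there are run numbers; no label states that they match. Means of log2(FPKM + 1) over cells were formed for 20 combinations of preparation and quartile. Genes with an FPKM of 1 or more in 10% or more of the cells (10452) entered a fit by limma 3.58.1 (R 4.3.3), weighted by the number of cells, with preparation as a block and a trend in the prior variance. Tests were two-sided, adjusted by Benjamini-Hochberg, with a threshold of 0.05. After the quartile average of each gene was subtracted, means with the same run number were correlated in 30 pairs of quartiles (median r = 0.19, lowest 0.0758). Means with different run numbers had a median r of -0.0908. Shares of cells were compared with an exact sign-flip permutation test over preparations. The fits were tested on simulated data. Depth was estimated from the steps between low FPKM values of 2110 single-transcript genes (minimum length 1500 bases). Limits from 0 cells cover counting error only. Sites and coordinates are from GENCODE M21. Python 3.11.15, pandas 2.3.3 and scipy 1.17.1 were used.

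The 5 members and the gene lists were chosen with earlier results of these data known, and 1 gene of a list is not reported here. Named were all members, the top and bottom gene of each list by the difference between Q1 and Q4, and the 5 genes most like each member by Pearson r over cells. Alternatives changed the block, pseudocount, filter, scaling, averaging, weights, covariates, detection threshold and preparations.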

Additional observations from a re-analysis of the deposited data

Results flagged for a closer look

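Of 30 sets of preparation values tested for a sample far from the others, 1 was picked out, and chance alone picks out about 1 in 20. Nanos3 in Q2 of preparation 3 had a mean log2(FPKM + 1) of 0.90, far below the other 4 preparations in that quartile, which lay between 4.88 and 5.99. This mean rests on 7 cells, of which 1 had Nanos3, and preparation 3 also had the fewest detected genes per cell. In the same 7 cells Pum2 was detected in 5 and Cnot1 in 7.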

How the results depend on the processing

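None of the 5 regulators passed an adjusted p of 0.05 in any comparison under any alternative run, with adjusted p from 0.113 to 1.00 over 253 limma values. The 35 shares had unadjusted exact permutation p from 0.125 to 1. The test allows no p under 0.0625 with 5 preparations. With 4 preparations, or with 5 of which 1 has equal shares, it allows none under 0.125. Of the 253 values, 235 kept their direction, and of the 35 shares, 32 did. Between Q1 and Q4, Cnot1 turned to -0.40 with detected genes as a covariate and Nanos3 to -0.32 on the log of the mean over cells. For the trend, the covariate gave -0.078 for Cnot1 and -0.0071 for Nanos3, and the log of the mean gave -0.14 for Nanos3. Between Q2 and Q3, where Dnd1 and Pum2 lay at -0.0039 and -0.0069, Dnd1 was 0.029 with the covariate, 0.053 at a pseudocount of 0.1 and 0.070 without the preparation block, and Pum2 was 0.018 without the block. The share of cells with Pum2 was 12.8 percentage points higher in Q1 when detected meant an FPKM of 5 or more, and 7.20 points higher at any value above 0. With each preparation left out in turn, Q1 minus Q2 ran from -0.035 to 0.34 for Nanos2, from -0.049 to 0.61 for Nanos3 and from -0.037 to 0.23 for Pum2. Q2 minus Q3 ran from -0.11 to 0.13 for Dnd1, from -0.69 to 0.028 for Nanos3 and from -0.067 to 0.11 for Pum2, and the Pum2 share from -3.02 to 5.13 points. The cause of these changes was not tested. Nanos2 has no value under the filter at 25% of cells, since it is found in fewer.

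The counts of genes called moved more than the members. Against 8 genes for Q1 and Q4 and 14 for the trend, scaling to a common 75th percentile gave 44 and 64. The covariate, the log of the mean, no filter, no weights and the fit without the preparation block each gave 0 for Q1 and Q4 and 0 for the trend, and a fit of Q1 and Q4 alone gave 0. Leaving out preparations gave 0 to 11 genes for Q1 and Q4 and 0 to 9 for the trend. A pseudocount of 0.1 moved the median difference of all genes to 0.32, against 0.17. The fit without the preparation block changed no call of a member. Precision was limited by 5 preparations of 4 to 20 cells per quartile: the SE of the 5 differences between Q1 and Q4 was 0.22 to 0.43 on the log2 scale.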
